A study of Mus musculus with 16 samples.

Results

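The data described here are those of 10 plasma membrane amino acid carriers in mIMCD3 cells, a mouse cell line of inner medullary collecting duct origin. The samples are labelled as this line, while their extraction protocol names primary TEC, an abbreviation it does not spell out and a difference the sources used here do not settle. They were chosen by gene symbol and are Slc38a1, Slc38a2 and Slc38a4 (the sodium-coupled neutral carriers SNAT1, SNAT2 and SNAT4), Slc7a1 (the cationic carrier CAT1), Slc7a5 and Slc7a6 (the light chains LAT1 and y+LAT2), Slc3a2 (their heavy chain, 4F2hc or CD98), Slc1a4 and Slc1a5 (ASCT1 and ASCT2) and Slc6a9 (GlyT1). All 10 symbols were found among the 55367 gene symbols of the count data, and 9 of them were among the 19509 genes that passed a filter on low counts. RNA sequencing had been performed in 16 libraries, 2 for each of 8 conditions. WT cells received the solvent DMSO or 10 μM sulforaphane (SFN), an activator of the transcription factor Nrf2, for 5 h, and RNA was taken without stress (isosmotic) or after 1 h or 6 h of hyperosmotic stress. The 1 h stress was given as hypertonic medium of 600 mOsm. The 6 h libraries carry the same treatment label with a longer time, and the study's methods describe a medium for 6 h of stress only for its viability screen, not for these libraries. Nrf2-/- cells, made by lentiviral delivery of Cas9 and a guide with drug selection, received SFN and were sampled isosmotic and after 1 h. No Nrf2-/- libraries with DMSO or at 6 h were analysed here, and whether the Nrf2-/- line is 1 clone is not given in the sources used here. The same isosmotic libraries serve both stress times in WT cells, and the sample labels give no medium change or collection time for isosmotic cells. Osmolality, medium change and time therefore cannot be told apart.

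Cells in the renal medulla live in a concentrated interstitium and keep their volume by accumulating small organic solutes, among them amino acids. SNAT2 draws neutral amino acids into cells along the sodium gradient and is a classical responder to hypertonic medium and to amino acid shortage. Many light-chain carriers are obligate exchangers that reach the membrane only when bound to 4F2hc, so sodium-coupled carriers such as SNAT1 and SNAT2 load the cell with the neutral amino acids that LAT1 then exchanges for others. Several of these genes are known targets of ATF4, the transcription factor of the amino acid response.

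Promoter sequences are shown for 3 carriers that changed at 6 h of stress and whose windows held a motif match. RefSeq promoter windows (GRCm38.p6, 250 bases before to 50 bases after a start) were found for 7 of the 10 carriers. They were searched on both strands for an antioxidant response element core (TGACNNNGC), an ATF4 site (TGATGNAA) and the NFAT5 motif, TonE. Each sequence below is the upstream part, written 5′ to 3′ on the gene's strand, with matches in capitals.
Slc38a2, chr15:96699729-96699978, minus strand: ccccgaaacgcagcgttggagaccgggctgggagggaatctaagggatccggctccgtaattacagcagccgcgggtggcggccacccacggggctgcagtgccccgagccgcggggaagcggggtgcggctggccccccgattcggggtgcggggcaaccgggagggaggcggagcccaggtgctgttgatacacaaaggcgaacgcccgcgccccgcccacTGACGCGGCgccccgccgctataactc
Slc7a1, chr5:148399905-148400154, minus strand: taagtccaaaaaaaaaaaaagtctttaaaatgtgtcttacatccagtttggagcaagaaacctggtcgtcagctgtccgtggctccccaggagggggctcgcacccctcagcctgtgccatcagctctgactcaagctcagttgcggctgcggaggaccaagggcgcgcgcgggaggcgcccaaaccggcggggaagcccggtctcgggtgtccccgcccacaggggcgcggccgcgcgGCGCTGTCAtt
Slc1a4, chr11:20332714-20332963, minus strand: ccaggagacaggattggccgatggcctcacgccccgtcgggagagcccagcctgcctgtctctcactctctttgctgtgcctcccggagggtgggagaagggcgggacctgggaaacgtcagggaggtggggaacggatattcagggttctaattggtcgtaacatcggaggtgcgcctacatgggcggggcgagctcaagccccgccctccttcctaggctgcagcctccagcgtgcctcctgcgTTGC
The match in Slc1a4 spans the start itself, from 4 bases before it to 4 bases into the transcript, and reads as a reverse-strand ATF4 site. The short stretches below show that site and the antioxidant response element cores of Slc7a6 and Slc6a9.
Slc1a4, ATF4 site: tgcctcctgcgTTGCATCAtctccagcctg
Slc7a6, ARE core: ccggtgcgagTGACGTGGCgtgggcggggc
Slc6a9, ARE core of the second window: tgaaagtaatTGACGCTGCccagcccggca
Slc6a9, ARE core of the third window: gtttccggctTGACTTGGCtgcttggtatg
At least 1 antioxidant response element core was found in 4 of the 7 carriers (Slc38a2, Slc7a1, Slc7a6 and Slc6a9), and in 14% of the 27025 genes with a window. The ATF4 site was found in 1 of 7 (Slc1a4) against 4.51% of genes, and TonE in 1 of 7 (Slc38a4) against 5.74%. Single windows held these motifs less often than genes did, 12.4%, 3.97% and 4.96% of 32851, since a gene can have several windows. Slc38a4 and Slc6a9 had 3 windows each and Slc7a1 and Slc7a6 2 each, which gave them more chances of a match than 1 window. The match in both windows of Slc7a6 is the same site. A match is a string of letters only, and binding was not measured in these libraries.

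Values are CPM (counts scaled to a common library size by TMM normalization), and differences are log2 fold changes with standard errors (SE) from edgeR's quasi-likelihood test over all 19509 genes, called at a Benjamini-Hochberg adjusted p under 0.05. Total counts lay between 34484296 and 50774875 per library. The study describes its replicates as biological, and with 2 libraries a condition an exact permutation test of a single value could not go below p = 0.333. The biological coefficient of variation between the libraries of a condition was between 0.0393 and 0.128 in 7 conditions and 0.348 in Nrf2-/- cells at 1 h. All comparisons share 1 estimate of the spread, and carriers whose call changed without these 2 Nrf2-/- libraries are named at each comparison. Nfe2l2, the gene of Nrf2, stood at 11.02 to 11.63 CPM in the 4 Nrf2-/- libraries and at 64.0 to 149 CPM in the 12 WT libraries, with no overlap between genotypes. Of 16 markers of the collecting duct epithelium, Krt8 was the most abundant at a mean of 866 CPM, and the list summed to between 1961 and 4455 CPM per library. The 4 markers Aqp4, Avpr2, Elf5 and Slc14a2 had at most 10 counts in every library, and Aqp2, the vasopressin-regulated water channel, reached means of only 0.105 and 0.317 CPM at 6 h with DMSO and SFN. Markers of the proximal tubule (6 genes, led by Lrp2), fibroblasts (5, Col1a1), endothelium (4, Pecam1) and leukocytes (4, Csf1r) summed to at most 40.6, 7.47, 5.36 and 17.4 CPM in any library. No gene of these lists was at 0 in every library, and Slc22a6, Dcn, Emcn and Cd3e had at most 10 counts in each.

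In unstressed WT cells with DMSO, the carriers differed widely in abundance. Per kilobase of exon, Slc7a5 was highest at 85.9 CPM per kb, followed by Slc3a2 at 63.2, Slc38a2 at 36.5, Slc7a6 at 27.3 and Slc7a1 at 19.4. Slc1a5 (15.9), Slc38a1 (8.88), Slc1a4 (6.67) and Slc6a9 (1.15) were lower. No neighbours in this order overlapped between their libraries. Slc38a4 was at or near the floor everywhere, with 0 to 6 counts per library, and was not tested. Exon lengths are unions over all annotated transcripts, so a gene with many long transcripts, such as Slc38a1 with 17236 bp, is set lower than by its main transcript. Slc38a2 led the order after 6 h of stress, at 221 CPM per kb with DMSO and 273 with SFN. Its share of the summed carrier mRNA per length was 13.8% in isosmotic DMSO cells, 27.0% at 1 h and 39.5% at 6 h. The sum over the 10 carriers went from 265 to 307 and 558 CPM per kb in the same cells. With SFN it went from 311 to 330 and 606 CPM per kb.

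**Figure D1:**
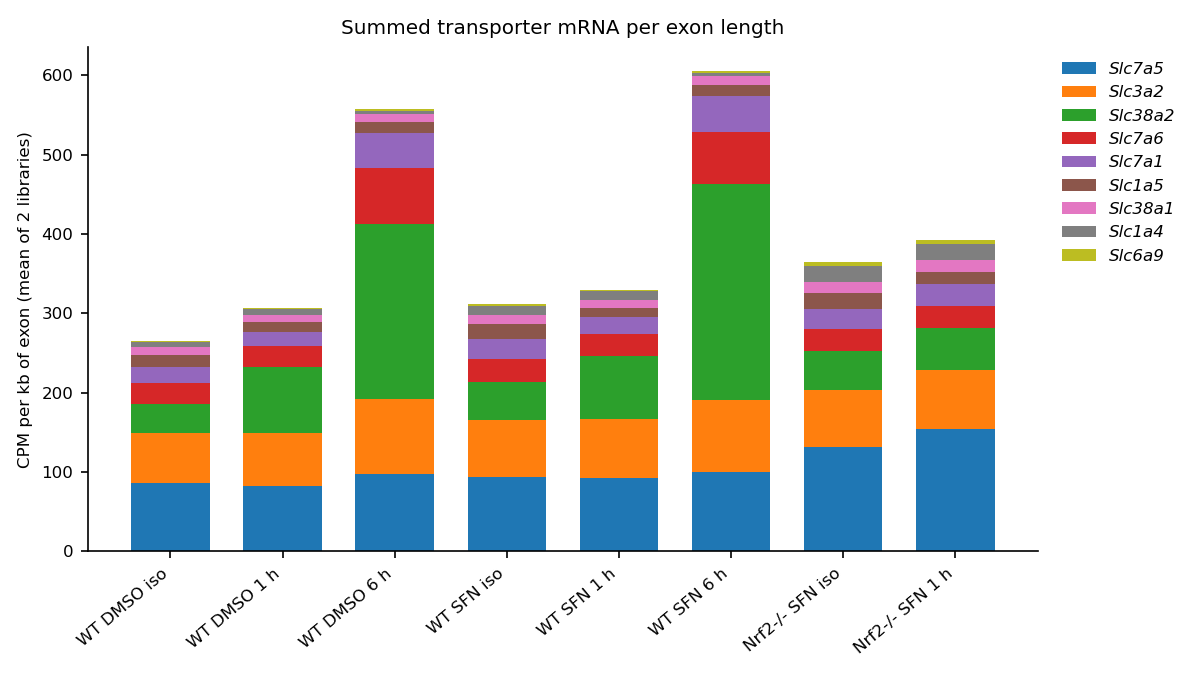
Summed carrier mRNA in CPM per kilobase of exon for each condition, as the mean of 2 libraries, with each colour 1 gene; Slc38a4 is too low to be drawn. The bars reach 558 and 606 CPM per kb at 6 h with DMSO and SFN, and the Slc38a2 segment is the tallest there.

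With DMSO, Slc38a2 was the carrier called after 1 h of hyperosmotic stress. After 1 h in DMSO-treated WT cells, 1 of the 9 carriers tested was higher and 0 lower, where 11.2% of all genes were called, 7.1% higher and 4.11% lower. Slc38a2 was at 333 and 312 CPM in isosmotic libraries and at 739 and 726 CPM after 1 h. Both stressed libraries were above both isosmotic ones, with a log2 fold change of 1.18 (SE 0.12, adjusted p = 2.13e-05 from edgeR). In bulk RNA, a change in the number of cells with a transcript and a change in its level per cell cannot be told apart. The other carriers kept within 0.5 log2 units, and their median, Slc38a2 included, was -0.01, against 0.00 over all genes. Slc1a5, the glutamine carrier ASCT2, had 66.3 and 66.7 CPM before and 46.1 and 50.2 CPM after 1 h, a log2 difference of -0.47 that missed the threshold (adjusted p = 0.0825 from edgeR). Without the 2 Nrf2-/- libraries at 1 h, Slc1a5 was called lower (-0.47, adjusted p = 0.000215 from edgeR), and the background rose to 22.1%.

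At 6 h the change took in carriers of several systems. With DMSO, 5 of 9 carriers were higher and 1 lower than in isosmotic cells, where 45.9% of all genes were called, 23.9% higher and 22% lower. The median log2 fold change of the 9 carriers was 0.59, and that of all genes was 0.05. Slc38a2 reached 2091 and 1811 CPM, a log2 fold change of 2.60 against isosmotic cells (SE 0.13, adjusted p = 1.9e-09 from edgeR) and of 1.41 against 1 h (SE 0.12). It thus rose at each step, with no overlap between its isosmotic, 1 h and 6 h libraries. Without the 2 Nrf2-/- libraries at 1 h, 7 of 9 carriers were called at 6 h against isosmotic cells, adding Slc1a5 on the lower side, and 56.7% of all genes.

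Slc7a6, which exchanges cationic for neutral amino acids, and Slc7a1, which takes up arginine and lysine, did not pass the test at 1 h and were higher at 6 h. Slc7a6 had 123 and 126 CPM in isosmotic libraries, 124 and 125 CPM at 1 h and 318 and 324 CPM at 6 h. The isosmotic and 1 h libraries overlapped, and the 6 h libraries stood far above them (log2 fold change 1.36, SE 0.083, adjusted p = 1.67e-08 from edgeR). Slc7a1 had 245 and 202 CPM in isosmotic libraries, 205 and 207 CPM at 1 h and 524 and 494 CPM at 6 h. The pattern was the same, with overlap up to 1 h and a log2 fold change of 1.19 at 6 h (SE 0.15, adjusted p = 1.61e-05 from edgeR).

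The glycine carrier Slc6a9 had 5.55 and 6.23 CPM in isosmotic libraries, 4.28 and 5.38 CPM at 1 h and 11.6 and 12.9 CPM at 6 h. Only the 6 h libraries of DMSO-treated cells lay above the isosmotic ones (log2 fold change 1.05, SE 0.17, adjusted p = 0.000167 from edgeR). Slc6a9 overlaps B4galt2, Ccdc24 and Gm17114 on the opposite strand, and as the use of strand in counting is not given in the sources used here, their reads cannot be told apart. The same holds for Slc7a5 and the overlapping gene Gm20388.

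The heavy chain Slc3a2 had 206 and 240 CPM in isosmotic libraries and 324 and 346 CPM at 6 h, with no overlap. It rose by 0.59 on the log2 scale (SE 0.17, adjusted p = 0.0113 from edgeR), the smallest of the calls at 6 h. This call was lost without isosmotic DMSO replicate 1 or 6 h DMSO replicate 2 (largest adjusted p = 0.105 from edgeR). Its partner Slc7a5 had 316 and 321 CPM before and 355 and 368 CPM at 6 h, a log2 difference of 0.18 that did not pass in all 16 libraries (adjusted p = 0.298 from edgeR). It was called in the fit of only the 12 WT libraries (0.21, adjusted p = 0.00447 from edgeR) and in that of only the libraries compared.

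Slc1a4, the serine and alanine exchanger ASCT1, was the carrier that fell. It had 26.2 and 26.2 CPM in isosmotic libraries, 28.5 and 29.0 CPM at 1 h and 14.7 and 17.1 CPM at 6 h. The 6 h libraries lay below all others with DMSO, and Slc1a4 fell by 0.72 on the log2 scale against isosmotic cells (SE 0.11, adjusted p = 0.000122 from edgeR). From 1 h to 6 h, the count was again 5 higher and 1 lower of 9, where 42.4% of all genes were called, 20.4% higher and 22% lower. The members were the same as against isosmotic cells, namely Slc38a2, Slc7a1, Slc7a6, Slc3a2 and Slc6a9 upward and Slc1a4 downward. The Slc3a2 call (0.50, adjusted p = 0.0273 from edgeR) was lost when any 1 of these 4 libraries was left out (largest adjusted p = 0.134). Without the 2 Nrf2-/- libraries at 1 h, 8 of 9 carriers were called from 1 h to 6 h, adding Slc7a5 (0.23, adjusted p = 0.00644 from edgeR) and Slc1a5 (0.24, adjusted p = 0.0216), where 53.5% of all genes were called. These comparisons share the 6 h libraries, and those against isosmotic cells share the isosmotic ones.

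**Figure D2:**
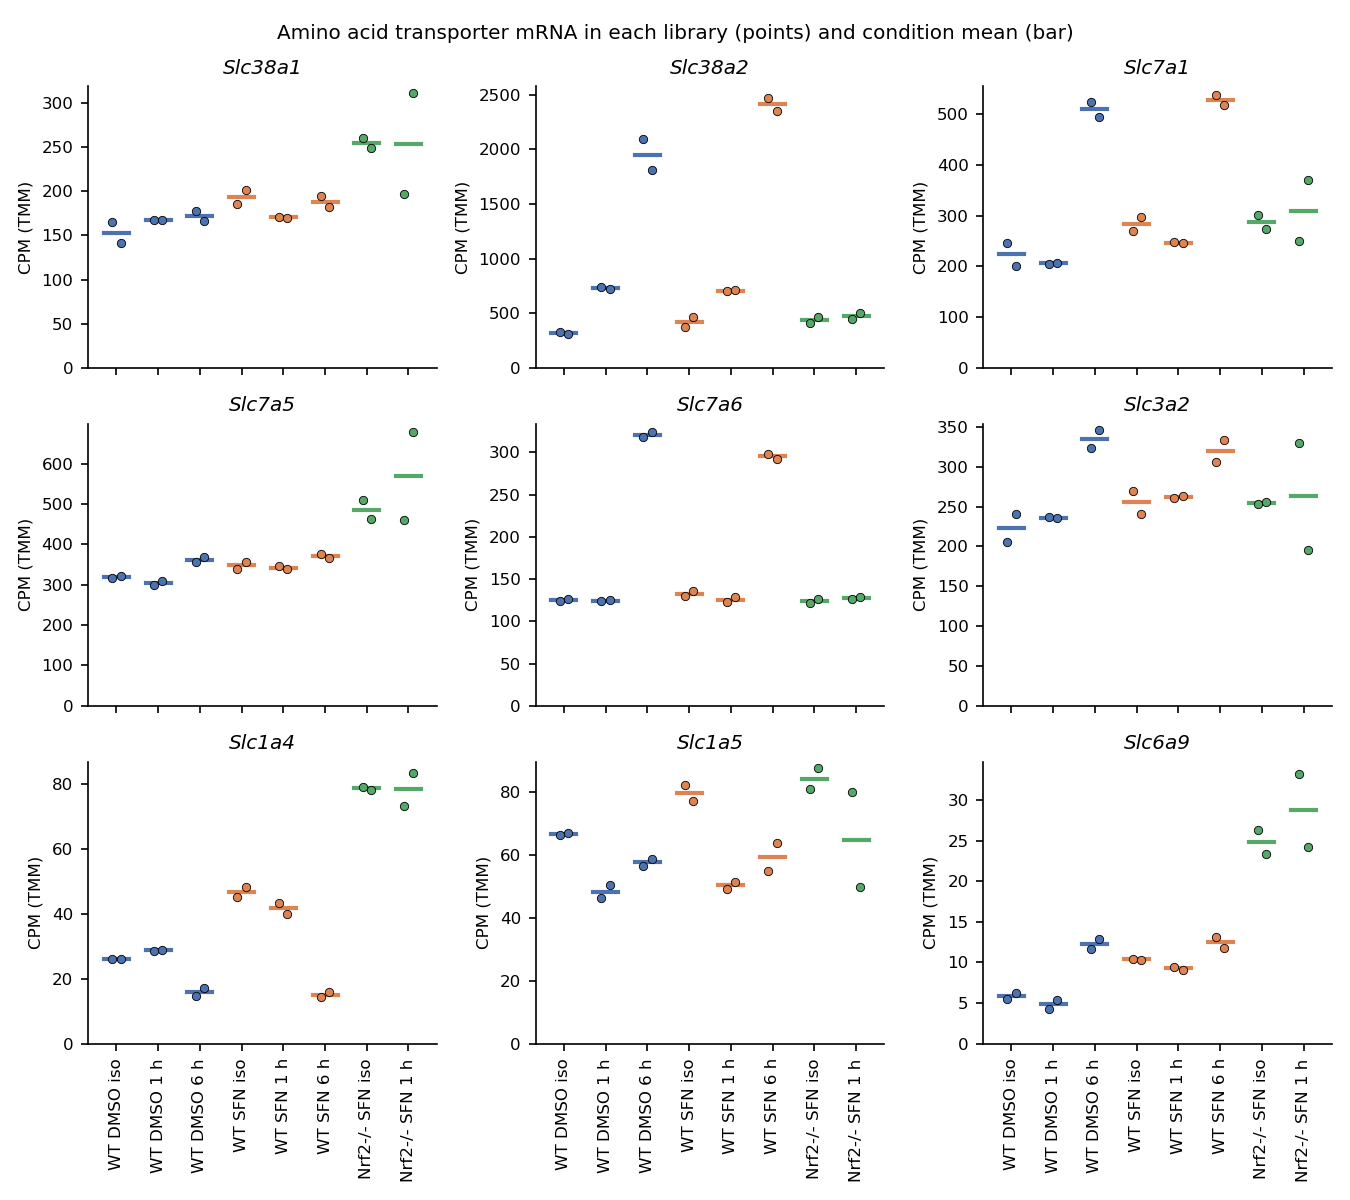
CPM after TMM normalization of the 9 tested carriers, with 1 point for each library and a bar for the mean of a condition, on linear axes from 0. Slc38a2 rises at 1 h and again at 6 h in WT cells, Slc7a1 and Slc7a6 rise at 6 h, and Slc1a4 is lowest at 6 h.

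In SFN-treated WT cells, at 1 h, 1 of 9 was higher and 1 lower, where 9.52% of all genes were called, 5.94% higher and 3.58% lower. Slc38a2 had 373 and 467 CPM in isosmotic and 702 and 711 CPM in 1 h libraries, with no overlap and a log2 fold change of 0.75 (SE 0.12, adjusted p = 0.00118 from edgeR). Slc1a5 went from 82.2 and 77.0 CPM to 49.3 and 51.4 CPM, also without overlap, and fell by 0.66 on the log2 scale (SE 0.16, adjusted p = 0.0186 from edgeR). The Slc1a5 call was lost when any 1 of these 4 libraries was left out (largest adjusted p = 0.13 from edgeR). The 1 h change of Slc38a2 was smaller with SFN than with DMSO, with a difference of -0.43 on the log2 scale that did not pass (SE 0.17, unadjusted p = 0.0213, adjusted p = 0.527 from edgeR).

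At 6 h with SFN, 3 of 9 carriers were higher and 2 lower, where 47.6% of all genes were called (24.7% higher and 22.9% lower), and the median log2 fold change was 0.27 for the carriers and 0.09 for all genes. Slc38a2 reached 2471 and 2349 CPM (log2 fold change 2.52, SE 0.13), Slc7a6 299 and 293 CPM (1.16, SE 0.083) and Slc7a1 538 and 518 CPM (0.90, SE 0.15). The 6 h libraries of these 3 genes were all above the isosmotic SFN libraries, and the adjusted p-values from edgeR were 1.93e-09, 6.61e-08 and 0.000179. Slc1a4 went from 45.3 and 48.3 CPM to 14.3 and 16.01 CPM, a fall by 1.63 on the log2 scale (SE 0.12, adjusted p = 5.85e-08 from edgeR). Slc1a5 stood at 54.9 and 63.5 CPM at 6 h, with a log2 change of -0.43 that was called by a small margin (adjusted p = 0.041 from edgeR) and lost under 11 of 24 alternatives, DESeq2 among them (adjusted p = 0.0706). Slc3a2 (306 and 334 CPM) and Slc6a9 (13.2 and 11.8 CPM) were not called by edgeR in all 16 libraries against isosmotic SFN libraries, which held 269 and 241 CPM of Slc3a2 and 10.5 and 10.3 CPM of Slc6a9. The log2 difference of Slc3a2 there was 0.33 (adjusted p = 0.132), and it was called by DESeq2 (0.40, adjusted p = 0.0463) and by edgeR without the 2 Nrf2-/- libraries at 1 h (0.30, adjusted p = 0.00186), where 58.4% of all genes were called. A filter of at least 10 counts in every library called both Slc3a2 and Slc6a9 and lost the call of Slc1a5.

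**Figure D3:**
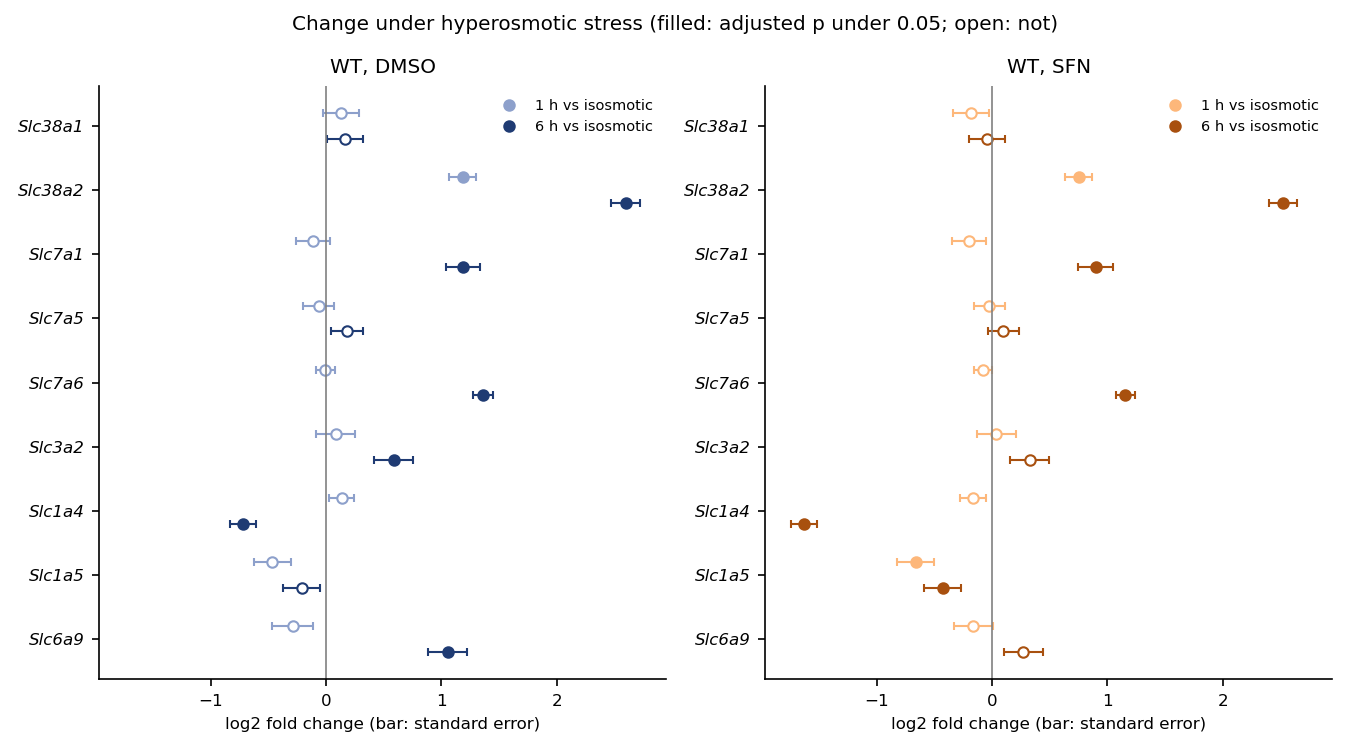
Log2 fold changes of the 9 carriers after 1 h and 6 h of hyperosmotic stress against isosmotic cells, in WT cells with DMSO (left) or SFN (right). Bars are standard errors of the edgeR fit, and filled points passed an adjusted p under 0.05. Slc38a2 lies farthest to the right at 6 h in both panels (2.60 and 2.52), and Slc1a4 farthest to the left (-0.72 and -1.63).

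SFN itself, before any stress, raised Slc1a4 and Slc6a9. In isosmotic WT cells 2 of 9 carriers were higher and 0 lower with SFN than with DMSO, where 2.84% of all genes were called, 1.09% higher and 1.76% lower. Slc1a4 had 26.2 and 26.2 CPM with DMSO and 45.3 and 48.3 CPM with SFN, with no overlap (log2 fold change 0.84, SE 0.11, adjusted p = 0.000528 from edgeR). Slc6a9 had 5.55 and 6.23 CPM with DMSO and 10.5 and 10.3 CPM with SFN, also without overlap (0.81, SE 0.17, adjusted p = 0.0178 from edgeR). The Slc6a9 call was lost when any 1 of these 4 libraries was left out (largest adjusted p = 0.137 from edgeR). In the same comparison 3 of 12 tested collecting duct markers were lower, the cell adhesion gene Cdh1 and the keratins Krt8 and Krt18, and 0 higher, and the list summed to 2489 and 2780 CPM with DMSO and 2089 and 1961 CPM with SFN. Their part in the carriers' values was not tested.

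All 9 carriers had a positive log2 difference with SFN in isosmotic cells, with a median of 0.34 against 0.00 over all genes. These 9 values share the same 4 libraries and are not independent. Without the 2 Nrf2-/- libraries at 1 h, 6 of 9 carriers were called higher, adding Slc38a2 (0.38, adjusted p = 0.00482 from edgeR), Slc7a1 (0.34, adjusted p = 0.0044), Slc38a1 (0.34, adjusted p = 0.0031) and Slc1a5 (0.26, adjusted p = 0.0381). The share of all genes called rose from 2.84% to 14.5% in that fit. In fits that left out 1 of the 16 libraries, Slc38a2 was 0.21 without isosmotic SFN replicate 2 and Slc7a1 was 0.21 without isosmotic DMSO replicate 2.

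At 1 h of stress, 0 of 9 carriers were called between SFN and DMSO by edgeR, where 0.0923% of all genes were called. An unadjusted p under 0.05 from edgeR was reached by 669 of all 19509 genes and by 2 of the 9 carriers. These were Slc6a9, with 4.28 and 5.38 CPM with DMSO and 9.50 and 9.04 CPM with SFN, and Slc1a4, with 28.5 and 29.0 CPM against 43.4 and 40.1 CPM. Both genes had their SFN libraries above their DMSO libraries, with log2 differences of 0.94 (SE 0.18, adjusted p = 0.0758 from edgeR) and 0.54 (SE 0.11, adjusted p = 0.157). DESeq2 called 2 carriers, again Slc6a9 (adjusted p = 0.00023) and Slc1a4 (adjusted p = 0.00727), as did edgeR without the 2 Nrf2-/- libraries at 1 h, where 0.479% of all genes were called. A fit by edgeR of only the libraries compared called 5 carriers, adding Slc7a1, Slc7a5 and Slc3a2, and its share of all genes called was higher as well.

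At 6 h, 0 of 9 carriers were called between SFN and DMSO by edgeR or DESeq2, where 0.041% of all genes were called by edgeR. The edgeR p was under 0.05 before adjustment for 718 of all 19509 genes and for 1 of the 9 carriers. Slc1a4 overlapped between the treatments at 6 h, with 14.7 and 17.1 CPM with DMSO and 14.3 and 16.01 CPM with SFN. Slc6a9 overlapped as well, with 11.6 and 12.9 CPM against 13.2 and 11.8 CPM. Slc38a2 did not overlap, with 2091 and 1811 CPM with DMSO and 2471 and 2349 CPM with SFN. Its log2 difference of 0.31 (SE 0.12, unadjusted p = 0.0217 from edgeR) did not pass over all genes. It was 0.20 without 6 h DMSO replicate 2 and 0.41 without 6 h DMSO replicate 1. Of the alternatives, only the fit of the libraries compared called it (adjusted p = 0.0127 from edgeR).

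The 6 h stress response itself differed between SFN and DMSO for 1 of the 9 carriers, where 0.759% of all genes were called, 0.595% higher and 0.164% lower. For Slc1a4 this difference of log2 fold changes was -0.91 (SE 0.16, adjusted p = 0.0123 from edgeR), that is, a steeper fall with SFN from a higher start to the same low level. The call was lost without either isosmotic DMSO library, 6 h DMSO replicate 2, isosmotic SFN replicate 2 or 6 h SFN replicate 1 (largest adjusted p = 0.116 from edgeR). The difference for Slc6a9 was -0.79 (SE 0.24) and did not pass in all 16 libraries (adjusted p = 0.226), but passed without the 2 Nrf2-/- libraries at 1 h (adjusted p = 0.0259, both from edgeR). In that fit 3.96% of all genes were called.

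**Figure D4:**
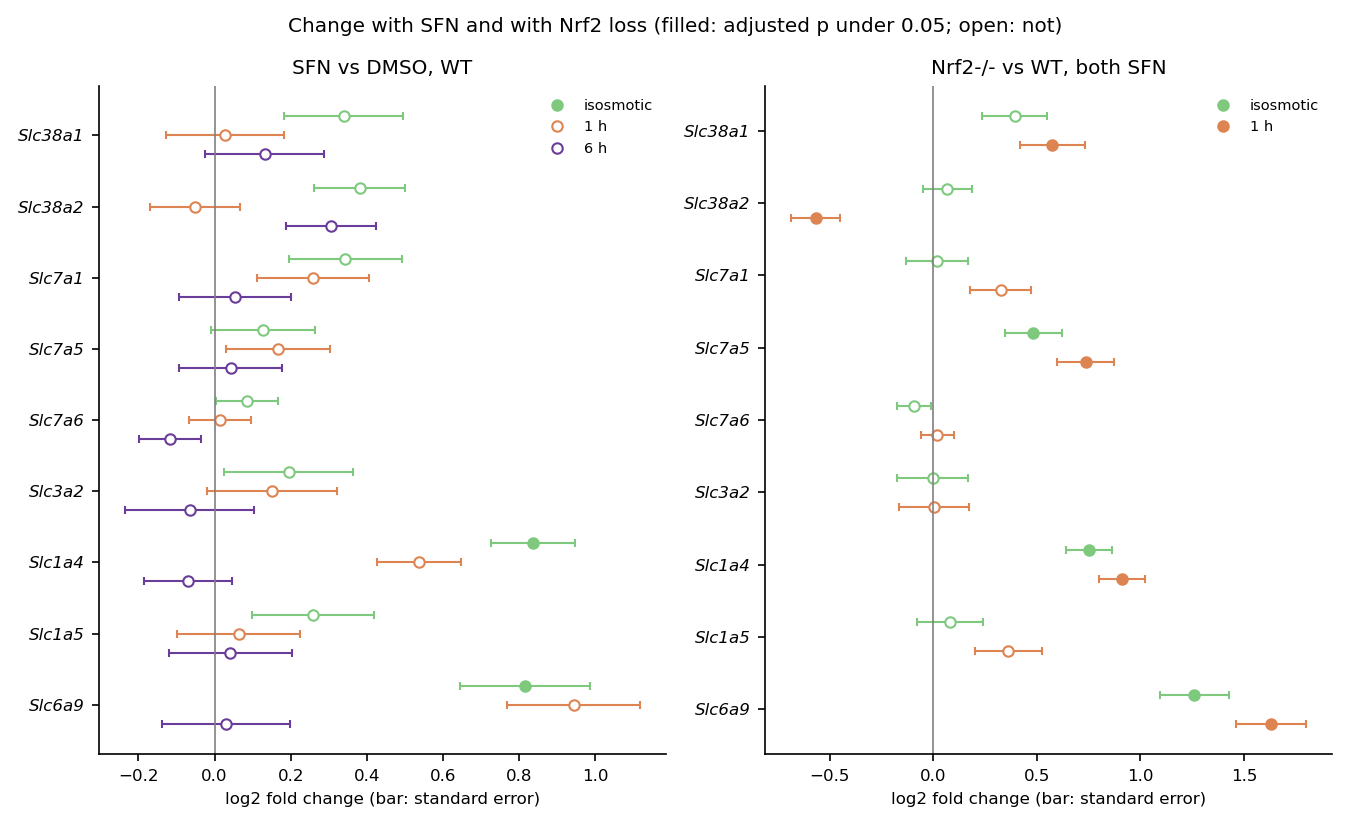
Log2 fold changes of the 9 carriers with SFN against DMSO in WT cells, isosmotic and at 1 h and 6 h (left), and in Nrf2-/- against WT cells, both with SFN (right). Bars are standard errors of the edgeR fit, and filled points passed an adjusted p under 0.05. Slc1a4 and Slc6a9 are the called genes on the left, in isosmotic cells, and both are also higher in Nrf2-/- cells on the right.

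Nrf2-/- cells with SFN did not have lower Slc1a4 or Slc6a9 than WT cells with SFN but higher levels of both. In isosmotic cells 3 of 9 carriers were higher and 0 lower in Nrf2-/-, where 34.1% of all genes were called, 15.7% higher and 18.4% lower. The genotypes are different cell lines, so loss of Nrf2 and other differences between the lines cannot be told apart. Slc6a9 had 10.5 and 10.3 CPM in WT and 26.4 and 23.3 CPM in Nrf2-/- cells (log2 fold change 1.26, SE 0.17, adjusted p = 3.51e-05 from edgeR). Slc1a4 had 45.3 and 48.3 CPM in WT and 79.3 and 78.3 CPM in Nrf2-/- cells (0.75, SE 0.11, adjusted p = 8.96e-05 from edgeR). Neither gene overlapped between the genotypes.

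Slc7a5 had 338 and 357 CPM in WT and 511 and 462 CPM in Nrf2-/- cells, again without overlap (0.48, SE 0.14, adjusted p = 0.0124 from edgeR). The Slc7a5 call was lost without WT SFN isosmotic replicate 1 or Nrf2-/- SFN isosmotic replicate 1 (largest adjusted p = 0.0997 from edgeR). The median log2 difference of the 9 carriers was 0.08 and that of all genes 0.00. Slc38a1 had 186 and 202 CPM in WT and 260 and 248 CPM in Nrf2-/- cells and did not pass in all 16 libraries (0.39, SE 0.16, adjusted p = 0.0645 from edgeR). It joined the calls without the 2 Nrf2-/- libraries at 1 h.

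At 1 h of stress, 4 of 9 carriers were higher and 1 lower in Nrf2-/- than in WT cells, where 31.5% of all genes were called, 15.3% higher and 16.2% lower. The median log2 difference was 0.36 for the carriers and -0.02 for all genes. Slc6a9 (33.3 and 24.2 CPM against 9.50 and 9.04 CPM) and Slc1a4 (73.4 and 83.5 CPM against 43.4 and 40.1 CPM) were again higher, by log2 fold changes of 1.63 (SE 0.17) and 0.91 (SE 0.11). Slc7a5 had 460 and 679 CPM against 345 and 339 CPM in WT (0.74, SE 0.14, adjusted p = 0.000773 from edgeR), and Slc38a1 197 and 311 CPM against 171 and 170 CPM (0.57, SE 0.16, adjusted p = 0.0111). The Nrf2-/- libraries thus lay above those of WT for all 4 genes, while the spread between them was the widest of the 8 conditions.

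The value for Slc38a1 rested on Nrf2-/- replicate 2, without which it was 0.21 (adjusted p = 0.0974 from edgeR), and its call was also lost without either WT SFN library at 1 h, at 0.57 in both. Slc7a5 without that replicate was 0.43 and still called. When only the 4 libraries compared were fitted, 2 carriers were called, Slc1a4 and Slc6a9, and 10.1% of all genes.

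Slc38a2 was the carrier that was lower in stressed Nrf2-/- cells. It had 415 and 465 CPM in isosmotic and 447 and 506 CPM in 1 h Nrf2-/- libraries, against 702 and 711 CPM in WT SFN libraries at 1 h. Isosmotic and stressed Nrf2-/- libraries overlapped, and both stressed ones lay below the stressed WT ones, with a log2 difference of -0.57 (SE 0.12, adjusted p = 0.00201 from edgeR). Leaving out Nrf2-/- replicate 1 or 2 gave -0.47 and -0.66, both called, and the call was lost when only the 4 libraries compared were fitted (adjusted p = 0.114 from edgeR).

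Within Nrf2-/- cells, 0 of 9 carriers were called at 1 h against isosmotic cells by edgeR or DESeq2. By edgeR, 7.17% of all genes were called (4.36% higher and 2.81% lower). Before adjustment, 3987 of all 19509 genes and 1 of the 9 carriers had an edgeR p under 0.05. In fits that left out 1 library, the log2 change of Slc38a2 within Nrf2-/- cells was between 0.02 and 0.20. In all 16 libraries it was 0.11 (SE 0.12, adjusted p = 0.662 from edgeR), against 0.75 in WT cells with SFN. The test of that difference gave -0.64 (SE 0.17) with an unadjusted p of 0.00193, which did not pass over all genes (adjusted p = 0.245 from edgeR, 0.0882 from DESeq2), where 0.123% were called, 0.0615% higher and 0.0615% lower. It passed when either Nrf2-/- library at 1 h was left out, at -0.55 (adjusted p = 0.0121 from edgeR) without replicate 1 and -0.72 (adjusted p = 0.0032) without replicate 2. Over the 9 carriers, leaving out replicate 1 gave 5 calls for this difference and leaving out replicate 2 gave 2, with Slc38a2 in both, and 9.75% and 5.82% of all genes were then called. In those fits the single remaining library is assumed to vary like the other conditions. For 1 h against isosmotic Nrf2-/- cells, the counts without replicate 1 and without replicate 2 were 5 and 2, where 23.9% and 21.6% of all genes were called, and Slc38a2 was not among them.

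The ratio of light to heavy chain mRNA was examined because light chains depend on 4F2hc. The sum of 6 light chains of Slc3a2 per kilobase, divided by Slc3a2, lay between 1.60 and 1.94 in the 12 WT libraries. It was 2.37 and 2.17 in isosmotic Nrf2-/- libraries, above every WT library, and 1.67 and 3.94 in those at 1 h, the first within the WT range and the second above it. Slc7a6 made up 23.9% and 24.1% of the light chain sum in isosmotic DMSO libraries and 41.8% and 41.5% at 6 h. With SFN, its share was 23.2% and 22.9% before and 38.9% and 38.9% at 6 h. The share of Slc7a5 went from 75.3% and 75.3% to 57.6% and 58.1% with DMSO, while its own level was not called in all 16 libraries. The mix of light chains thus moved toward Slc7a6 at 6 h in both treatments. The ratio to the heavy chain was 1.94 and 1.69 in isosmotic DMSO libraries and 1.81 and 1.74 at 6 h, and 1.60 and 1.89 against 1.94 and 1.74 with SFN, so the times overlapped with both treatments.

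Of 43 other amino acid carriers, 30 passed the filter. With DMSO, 1 was higher and 0 lower at 1 h, where 7.1% of all genes were higher and 4.11% lower. At 6 h, 10 were higher and 7 lower, where 23.9% of all genes were higher and 22% lower. Slc6a12, the betaine and GABA carrier BGT1, had 0 counts in both isosmotic DMSO libraries and 877 and 896 counts at 6 h, at least 385-fold higher when 3 counts per library are taken as the floor. With SFN it had 0 counts in both isosmotic libraries and 876 and 840 at 6 h, at least 382-fold higher. Slc6a5, the glycine carrier GlyT2, went from 0 counts in both isosmotic DMSO libraries to 49 and 38 at 6 h, at least 18.8-fold higher. Slc3a1, the heavy chain of a kidney cystine carrier, had 7 and 4 counts in isosmotic DMSO libraries and 167 and 119 at 6 h (log2 fold change 5.04, SE 0.53). The taurine carrier Slc6a6 stood at 266 and 219 CPM in isosmotic DMSO libraries and 1043 and 956 CPM at 6 h (2.04, SE 0.10). The number of genes with any count also differed, at 21349 and 20729 in isosmotic DMSO libraries and 25115 and 24274 at 6 h, and its part in the gain of low genes was not tested.

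Among the 30, SFN raised Slc7a11, the cystine light chain of Slc3a2 and an Nrf2 target, and Slc6a17 in isosmotic cells. Slc7a11 made up 0.55% and 0.398% of the light chain sum with DMSO and 2.19% and 2.31% with SFN. It was not lower but higher in SFN-treated Nrf2-/- cells than in WT, at 73.4 and 67.8 CPM against 37.3 and 41.5 CPM (log2 fold change 0.84, SE 0.25, adjusted p = 0.0162 from edgeR). The Nrf2-/- libraries differed from WT in 11 of the 30, 2 higher and 9 lower, both isosmotic and at 1 h, a share near the 34.1% and 31.5% of all genes called. Slc16a10, the aromatic amino acid carrier TAT1, had 0 counts in both isosmotic Nrf2-/- libraries and 883 and 1490 in WT, at least 309-fold lower. Slc1a1, the glutamate carrier EAAC1, had 0 counts in both and 73 and 71 in WT, at least 19.7-fold lower.

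The 18 genes of the amino acid response, listed as ATF4 targets with Atf4 itself, were all tested. At 6 h with DMSO 9 were higher and 2 lower, with a median log2 fold change of 0.37, where 23.9% of all genes were higher and 22% lower and their median was 0.05. Nupr1 (4.99, SE 0.56), a stress-induced chromatin protein, Ddit4 (3.12, SE 0.32), an inhibitor of mTORC1, and Cebpb (1.15, SE 0.20) rose. Trib3 (-2.11, SE 0.17), a pseudokinase that restrains ATF4, and Vldlr (-0.69, SE 0.13), a lipoprotein receptor, fell. Atf4 itself was also higher at 6 h (0.61, SE 0.13). The part of these genes in the carriers' values was not tested. SFN in isosmotic cells raised Chac1 (1.98, SE 0.20), which degrades glutathione, Sesn2 (1.08, SE 0.13) and Trib3 (0.76, SE 0.15) and lowered Atf3 (-1.49, SE 0.16) and Stc2 (-1.02, SE 0.26).

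In Nrf2-/- against WT cells with SFN, 12 of the 18 amino acid response genes were higher and 1 lower when isosmotic, with a median log2 difference of 0.74, where 15.7% of all genes were higher and 18.4% lower. At 1 h, 13 were higher and 1 lower, with a median of 1.03, where 15.3% of all genes were higher and 16.2% lower. Asns, asparagine synthetase, was among those higher in isosmotic cells (1.59, SE 0.14), as were Stc2 (3.38, SE 0.26) and Trib3 (1.26, SE 0.15). Of the carriers, 3 of 9 were called higher in isosmotic Nrf2-/- cells (Slc6a9, Slc1a4 and Slc7a5), against the same 15.7% of all genes, and the others were not called. Any link between these carriers and this list was not tested. Of 12 tested collecting duct markers, 2 were higher and 5 lower in isosmotic Nrf2-/- cells, against the same 15.7% and 18.4% of all genes, among them Cdh16 (-3.29, SE 0.19), a kidney cadherin, Pax2 (-2.41, SE 0.092) and Epcam (2.54, SE 0.22). The part of these line differences in the carriers' values was not tested.

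Of the 9 tested osmotic response genes listed as NFAT5 targets with Nfat5 itself, 3 were higher at 1 h and 8 at 6 h with DMSO, where 7.1% and 23.9% of all genes were higher, and 0 were lower. The lists used here overlap, so their counts are not independent. Slc6a6, Slc6a12, Sgk1, Aqp2, Slc14a2, Slc38a9, Sesn2 and Slc7a11 each stand in more than 1 list. Akr1b3, the aldose reductase that makes sorbitol, Slc5a3, the inositol carrier, and Hspa1b had log2 fold changes of 3.96 (SE 0.10), 4.27 (SE 0.26) and 5.18 (SE 0.17) at 6 h. Of the 12 tested collecting duct markers, 6 were higher and 1 lower at 6 h with DMSO, where 23.9% and 22% of all genes were, and 8 higher and 0 lower with SFN, where 24.7% and 22.9% were, and the list summed to 2489 and 2780 CPM in isosmotic DMSO libraries and 4408 and 4455 CPM at 6 h. All 4 tested proximal tubule markers were higher at 6 h with DMSO. The proximal tubule list summed to 12.3 and 10.1 CPM in isosmotic DMSO libraries and 40.6 and 38.8 CPM at 6 h, with Aqp1 at a mean of 15.3 CPM. The corresponding sums of fibroblast markers were 3.19 and 2.81 against 6.00 and 7.47 CPM and those of endothelial markers 0.0477 and 0.177 against 4.06 and 4.32 CPM. Of 3 tested markers in each list, 2 fibroblast and 2 endothelial markers were higher, and of 3 leukocyte markers Ptprc was. Their part in the carriers' change was not tested. The 9 Nrf2 readout genes include Nfe2l2 itself. Of them, 7 were higher with SFN in isosmotic WT cells, 8 at 1 h and 2 at 6 h, and 0 were lower. Of all genes, 1.09%, 0.0923% and 0.041% were higher in these comparisons. In Nrf2-/- against WT cells with SFN, 8 of the 9 were lower and 1, Slc7a11, higher in both states. Among the 8 is Nfe2l2, the gene disrupted in this line and the check of genotype above, so it is no separate readout. Of all genes, 18.4% were lower when isosmotic and 16.2% at 1 h.

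Of 12 genes for trafficking and control of the carriers, 4 were higher and 4 lower at 6 h with DMSO, where 23.9% of all genes were higher and 22% lower. Sgk1, a kinase that raises the surface level of several carriers, rose most (4.18, SE 0.24). Slc38a9, the lysosomal arginine sensor of mTORC1, fell most (-1.53, SE 0.14), followed by Rptor (-0.91, SE 0.16), Rraga (-0.71, SE 0.11) and Eif2ak4 (-0.64, SE 0.11), the kinase GCN2 that senses uncharged tRNA. Sesn2, a leucine sensor, was higher with SFN in isosmotic cells and Sgk1 lower (-1.15, SE 0.22).

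Genes with the pattern most like each carrier were named by Pearson's r of log2 CPM over the 12 WT libraries, among 12291 genes with a mean of at least 50 counts. These are descriptions over libraries that share their conditions. Slc38a2 was most like Gm35610 (r = 0.996), Zfp217 (0.992) and Tob1 (0.992), and Slc7a6 most like Akap1 (0.998), Orai2 (0.997) and Utp4 (0.9965). Slc7a1 was most like Smarcc1 (0.994), Gtf3c4 (0.994) and Eaf1 (0.993), and Slc1a4 most like Tbcel (0.989), Chpf2 (0.987) and Slc22a23 (0.9845). Slc7a5 and Slc6a9 were each other's nearest gene (0.971), and Pcx was among the nearest of both (0.948 and 0.950), with Arih2 (0.936) for Slc7a5 and Atf5 (0.957) for Slc6a9. Slc3a2 was most like Rangap1 (0.981), Agap3 (0.976) and Shpk (0.972), Slc1a5 most like Inf2 (0.981), 4933439C10Rik (0.962) and Gm37893 (0.946), and Slc38a1 most like Crk (0.957), Tnks2 (0.933) and Polr2a (0.929).

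On GRCm38 (GENCODE M21), Slc38a1, Slc38a2 and Slc38a4 lie beside each other on the minus strand of chromosome 15, at chr15:96571418-96642913, chr15:96687392-96699730 and chr15:96994820-97055956. These neighbours differed, since Slc38a2 rose at each time, Slc38a1 was not called at either time in WT cells when all 16 libraries were fitted and Slc38a4 was near the floor. Slc38a1 had 165 and 141 CPM in isosmotic DMSO libraries, 167 and 167 CPM at 1 h and 177 and 166 CPM at 6 h. In the fit of only the 12 WT libraries Slc38a1 was called at 6 h with DMSO, as were 8 of 9 carriers and 57.6% of all genes. Slc7a1 lies at chr5:148327410-148399904, Slc7a5 at chr8:121881150-121907694, Slc7a6 at chr8:106168857-106198706, Slc3a2 at chr19:8706882-8723369, Slc1a4 at chr11:20302180-20332713, Slc1a5 at chr7:16781340-16798274 and Slc6a9 at chr4:117834506-117875198. Counts are sums over whole genes, so the exons and isoforms behind them are not resolved.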

How the data were processed

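RNA-seq of total RNA from 16 libraries (8 conditions, 2 replicates each) was analysed from gene counts deposited by the authors, whole numbers per gene symbol with no normalization. The study's methods name Hisat2, Samtools and FeatureCounts on mm10, whereas the submitters' processing notes list Bowtie2, SAMtools and featureCounts; versions, annotation, strand and treatment of multimapping reads are not given in the sources used here. Samples were grouped by their labels. Replicate numbers are those of the sample titles; the file headers number the isosmotic WT SFN libraries differently. Genes were filtered with filterByExpr, scaled by TMM and fitted with edgeR 4.0.16 (quasi-likelihood, robust) over all 16 libraries in R 4.3.3, with p-values adjusted by Benjamini-Hochberg over 19509 genes and called under 0.05. Lines without a gene name, at most 3 in a library, were left out. CPM per kilobase used the union of GENCODE exons. Named are all carriers, the 3 genes most like each tested one by Pearson's r, and from each list at most the 5 called genes of largest change; Slc6a6, Vldlr and Atf4 at 6 h fall outside this rule and were chosen after their values were seen. The members and lists were chosen with earlier results of these data known. The fit was also run on simulated data, and no result given here rests on that run. Alternatives were DESeq2 1.42.0, RLE scaling, other filters, fewer libraries, a replicate block and leaving out each library.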

Additional observations from a re-analysis of the deposited data

Results flagged for a closer look

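The 6 h change of Slc1a4 differed between SFN and DMSO by a test of the difference itself, with -0.91 on the log2 scale (SE 0.16, adjusted p = 0.0123, edgeR). Its level went from a mean of 26.2 to 15.9 CPM with DMSO and from 46.8 to 15.1 CPM with SFN, and both 6 h libraries lay below both isosmotic libraries in each treatment. The call was lost in 5 of the fits that left out 1 library, with an adjusted p of up to 0.116 from edgeR.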

How the results depend on the processing

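With 2 libraries a condition, single calls rest on few libraries; where 1 library was left out, the lone one was assumed to vary like the other conditions. Counts of carriers called moved by more than 1.5 times as follows. For DMSO 1 h against isosmotic, 2 were called with no filter, with only the libraries compared, with only the 12 WT libraries and without the 2 Nrf2-/- libraries at 1 h, an alternative chosen after seeing the data, where 7.93%, 21.7%, 22.9% and 22.1% of all genes were called. SFN against DMSO gave 6 in isosmotic cells with the 12 WT libraries and without those 2 libraries (15.2% and 14.5% of genes). At 1 h it gave 2 with DESeq2, 1 with no filter, 5 with only the libraries compared, 2 with the 12 WT libraries and 2 without those 2 libraries (0.251%, 0.12%, 4.95%, 0.533% and 0.479% of genes). At 6 h it gave 1 with only the libraries compared (0.623%). Nrf2-/- against WT at 1 h gave 2 with only the libraries compared (10.1%). The SFN by 6 h difference gave 2 with the 12 WT libraries and without those 2 libraries (4.24% and 3.96%), and the Nrf2-/- by 1 h difference gave 1 with no filter (0.458%). Leaving out 1 library gave 1 to 2 calls for DMSO 1 h against isosmotic (4.45% to 20.3% of all genes), 1 to 2 for SFN 1 h (3.33% to 15.7%), 1 to 6 for SFN against DMSO isosmotic (0.804% to 13%), 0 to 2 at 1 h (0.0283% to 0.461%), 0 to 5 for Nrf2-/- 1 h against isosmotic (2.53% to 23.9%), 0 to 2 for the SFN by 6 h difference (0.325% to 3.6%) and 0 to 5 for the Nrf2-/- by 1 h difference (0.0377% to 9.75%). Slc38a2 changed sign, never called, in Nrf2-/- against WT isosmotic cells (-0.091 without WT SFN isosmotic replicate 1 and -0.022 without Nrf2-/- isosmotic replicate 2, up to 0.236) and in the SFN by 6 h difference (0.027 without DMSO 6 h replicate 1 and 0.094 without SFN isosmotic replicate 2, down to -0.236). The causes were not tested. Same-numbered replicates did not deviate together (28 pairs of conditions, r from -0.0794 to 0.123, 1 over 0.1). The values thus give no sign of pairing by number, but they cannot exclude that samples were prepared in pairs. With a replicate block, carriers called were 1, 6 and 6 for DMSO 1 h and 6 h against isosmotic and 6 h against 1 h (9.84%, 44.7% and 40.9% of all genes), 2 and 4 for SFN 1 h and 6 h (8.31% and 46.2%), 2, 0 and 0 for SFN against DMSO (2.26%, 0.0666% and 0.0103%), 3 and 5 for Nrf2-/- against WT (32.8% and 29.9%), 0 within Nrf2-/- (6.15%), and 1 and 0 for the SFN by 6 h and Nrf2-/- by 1 h differences (0.661% and 0.0923%). Slc1a5 at 6 h with SFN was the call lost under the block (-0.43, adjusted p = 0.0531 from edgeR).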
